A study of Mus musculus with 18 samples.

Results

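The genes described here are 9 enzymes and cofactors that write or remove cytosine methylation in DNA: Dnmt1, Uhrf1, Dnmt3a, Dnmt3b, Dnmt3l, Tet1, Tet2, Tet3 and Tdg. They were chosen by name, and each was followed through 1 RefSeq transcript row, the one with the highest mean count scaled to a library of 1000000 (CPM) among rows present in both long RNA tables. Such a row was found for 8 of the 9 genes, among 14797 genes with a row in the mRNA table and 13917 in the RNAome table. No row of either table was annotated as Tet1 by the gene table used, so its RefSeq row was not analysed here and Tet1 is described by reads in its introns.

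All samples were embryonic stem (ES) cells of the mouse, strain C57BL/6, passages 19 to 22, and both groups were HPRT deficient, that is, without a purine salvage enzyme. The 3 cisplatin samples, coded 8.3.3, 8.4.3 and 8.5.3, received cisplatin, a DNA-crosslinking platinum drug, at 2.5 µM, and the 3 control samples, coded 8.4.16, 8.5.16 and 8.6.16, received the solvent DMSO. The sources used here do not give the exposure time. The labels do not say whether samples of a group were separate cultures, so a p-value measures only how these samples scatter, which may be technical. RNA of each sample was read by mRNA sequencing, by RNAome sequencing of rRNA-depleted, fragmented total RNA, and by small RNA sequencing, giving 18 libraries. The cells had been on feeder fibroblasts until their last passage, which was on gelatin.

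DNA methylation in mammals is set mainly on CpG dinucleotides. DNMT3A and DNMT3B place new methyl groups, with DNMT3L as a catalytically inactive partner, and DNMT1 copies the pattern after replication, guided by UHRF1, which binds hemimethylated CpG. TET enzymes oxidize the methyl group, TDG cuts out the more oxidized bases, and base excision repair restores an unmodified cytosine. ES cells of the mouse express the de novo enzymes, Dnmt3l, Tet1 and Tet2 strongly.

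The long RNA tables held 20365963 to 31604098 counts per mRNA library. RNAome libraries held 71146210 to 94373096 counts with cisplatin and 43404675 to 68757893 in control. Every cisplatin RNAome library was thus deeper than every control library, so depth and treatment went together there. The drug response was present in the libraries as labelled: the p53 target genes Cdkn1a, Mdm2 and Ccng1 passed the test in both assays, with log2 changes of 1.14 to 1.30. Hprt was near the detection limit in both groups of mRNA libraries, with 41 counts over the 3 cisplatin and 34 over the 3 control libraries. All 8 listed ES cell markers had a row, with a summed level of 3969 to 4192 CPM in the cisplatin and 4601 to 4845 CPM in the control mRNA libraries. Of 8 feeder fibroblast markers, 6 had a row in the mRNA table, Lum and Dcn had none, and the sum was 34.7 to 68.6 CPM in cisplatin and 38.7 to 58.5 CPM in control libraries, with none of the 6 past the test.

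In mRNA sequencing the levels of 6 of the 8 genes fell with cisplatin and none rose. Tet2, Dnmt3b, Dnmt3l, Tdg, Dnmt3a and Uhrf1 were lower, in that order, by 28.0% for Tet2 down to 10.5% for Uhrf1, while Dnmt1 and Tet3 did not pass the test. These 6 were called at an adjusted p under 0.05 with edgeR's quasi-likelihood test, and in each of them every cisplatin library lay below every control library. Among all 14083 genes tested, 37.2% were called in either direction, 19.2% were called lower, and 23.9% had all cisplatin libraries below all controls. DESeq2 also called 6 of the 8, with 29.2% of all genes called. The median log2 change was -0.25 over the 8 genes and 0.01 over all genes tested. Fewer cells of a type and less RNA per cell cannot be told apart in these bulk samples.

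The de novo methyltransferases and their partner fell together. Dnmt3b (RefSeq row NM_001003961, chromosome 2: 153475186 to 153513466 on mm9, plus strand) had 302, 256 and 258 CPM in the cisplatin libraries 8.3.3, 8.4.3 and 8.5.3, against 322, 371 and 341 CPM in the control libraries 8.4.16, 8.5.16 and 8.6.16. Cisplatin library 8.3.3 was the highest of its group and came closest to the controls, but the groups did not overlap. The log2 change was -0.34 ± 0.07 (SE, adjusted p 0.0011 with edgeR), with means of 272 ± 26 CPM with cisplatin against 345 ± 24.6 CPM in control (SD, n = 3 each).

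Dnmt3a (NM_007872, chromosome 12: 3806007 to 3914443, plus strand), the other de novo enzyme, had 292, 280 and 293 CPM with cisplatin against 323, 345 and 358 CPM in control. The cisplatin libraries lay close together, below all controls. Its log2 change was -0.25 ± 0.05 (edgeR adjusted p 0.00122). In mRNA sequencing a second row of the gene, NM_153743, held 67.3% to 68.5% as many reads as this one with cisplatin. In control it held 68.6% to 70.7% as many. In RNAome sequencing the groups overlapped, at 55% to 55.2% with cisplatin and 53.8% to 56.6% in control. This ratio of rows was computed for Dnmt3a alone, and its difference between groups was not tested. With each RefSeq row as its own feature, the log2 changes in mRNA sequencing were -0.24 and -0.27. Rows of 1 gene overlap, however, and are not independent.

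Dnmt3l (NM_019448, chromosome 10: 77504692 to 77526367, plus strand) had 276, 235 and 220 CPM with cisplatin, against 285, 288 and 324 CPM in control. The highest cisplatin library, 8.3.3, was just below the lowest control library, 8.4.16. The log2 change was -0.29 ± 0.07 (edgeR adjusted p 0.00648). With total counts in place of TMM scaling its adjusted p was 0.0506, the highest of its alternatives, of which the lowest was 0.000147.

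The maintenance pair had small estimates. Dnmt1 (NM_001199431, chromosome 9: 20711650 to 20757317, minus strand) had 434, 430 and 458 CPM with cisplatin and 456, 472 and 461 CPM in control, so the groups overlapped at cisplatin library 8.5.3. Its log2 change of -0.07 ± 0.04 did not pass (edgeR adjusted p 0.209), with a 95% interval of -0.17 to 0.02. With total counts in place of TMM scaling its sign turned, to 0.023, and that scaling moved the median of all genes to 0.11.

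Uhrf1 (NM_010931, chromosome 17: 56442744 to 56462909, plus strand) had 464, 467 and 473 CPM with cisplatin, against 511, 498 and 561 CPM in control. The cisplatin libraries were tightly grouped below all controls, and control library 8.6.16 was the highest. The log2 change was -0.16 ± 0.05 (edgeR adjusted p 0.0182). The call was lost without cisplatin library 8.4.3 (adjusted p 0.0754), without cisplatin library 8.5.3 (0.0582), without control library 8.6.16 (0.0506) and with total-count scaling (0.322), and over all its alternatives the adjusted p ran from 0.0102 to 0.322. In the authors' abundance table its row held 80.1% to 81.7% of the expression-table counts, and the reason is not stated.

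Among the demethylation genes, Tet2 had the lowest estimate of the 8. Tet2 (NM_001040400, chromosome 3: 133126643 to 133207354, minus strand) had 135, 124 and 111 CPM with cisplatin, against 185, 173 and 158 CPM in control. The groups did not overlap, and cisplatin library 8.5.3 was the lowest. The log2 change was -0.47 ± 0.07 (edgeR adjusted p 0.000163), a level 28.0% lower, and the call was kept under all 13 alternatives.

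Tdg (NM_172552, chromosome 10: 82092573 to 82113544, plus strand), which excises oxidized methylcytosine, had 118, 118 and 117 CPM with cisplatin, against 135, 136 and 149 CPM in control. The cisplatin libraries were almost equal and lay below all controls. The log2 change was -0.25 ± 0.05 (edgeR adjusted p 0.00227). Only 23.0% to 26.5% of its expression-table counts appeared in the abundance table. The reason is not stated, and its level is uncertain. In the abundance table, where 37.9% of genes were called, its change was -0.33 ± 0.08 (edgeR adjusted p 0.00393). Over all 13 alternatives to the expression-table test (edgeR or DESeq2), the abundance table among them, the adjusted p of Tdg ran from 0.000629 to 0.0372.

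Tet3 (NM_183138, chromosome 6: 83312367 to 83391672, minus strand), a TET enzyme best known from the zygote and from differentiated cells, was the least abundant, with 16.1, 17.4 and 15.7 CPM with cisplatin and 19.9, 17.99 and 16.9 CPM in control. The groups overlapped. Its log2 change was -0.15 ± 0.10 (edgeR adjusted p 0.288).

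**Figure D1:**
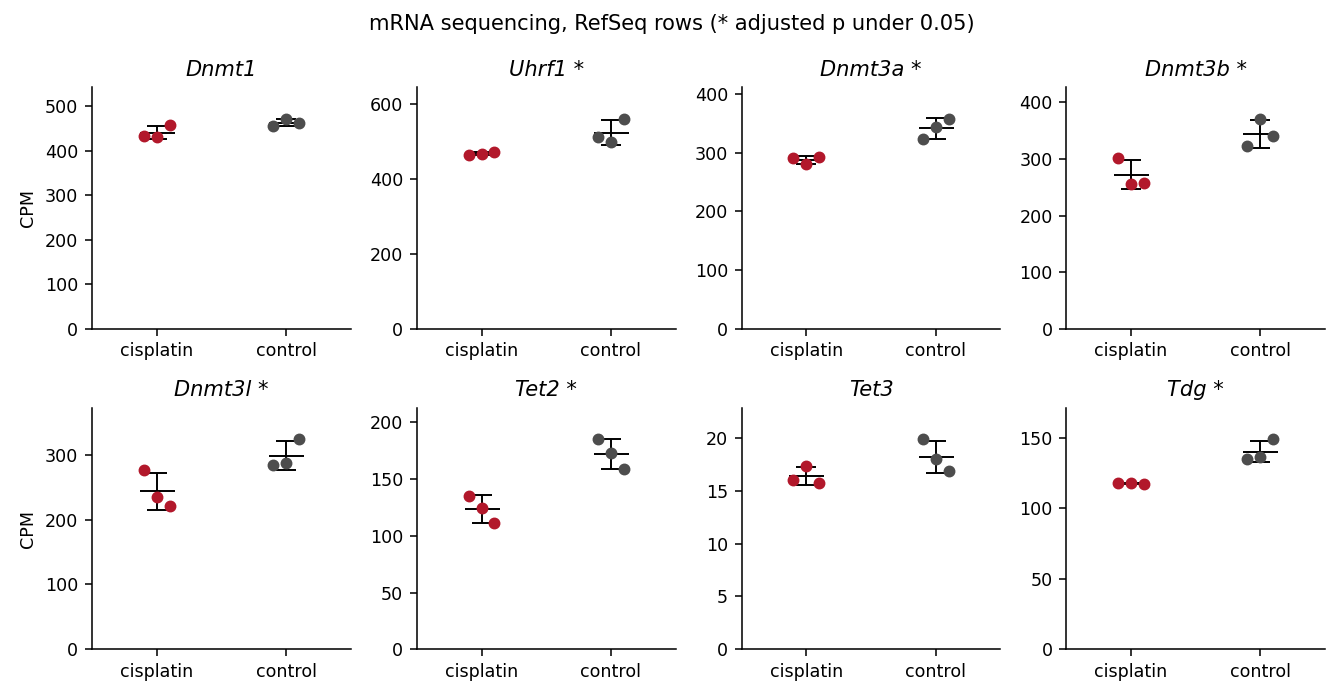
CPM of each gene's RefSeq row in mRNA sequencing (y axis, from 0) in the cisplatin and control libraries (x axis), with points for libraries and bars for mean ± SD, n = 3. In the 6 genes marked with an asterisk (adjusted p under 0.05) all cisplatin points lie below all control points, while Dnmt1 and Tet3 overlap.

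Levels can be compared between genes only per length. Per kilobase of the longest coding transcript, on the mRNA scale, the order was the same in both groups: Dnmt3l, Uhrf1, Dnmt1, Dnmt3b, Tdg, Dnmt3a, Tet2 and Tet3. Dnmt3l stood at 134 ± 15.9 CPM per kb with cisplatin and 164 ± 12 CPM per kb in control, and Uhrf1 at 131 ± 1.22 with cisplatin and 146 ± 9.25 in control, and the ranges of these neighbours overlapped in each group. All other neighbours in the order had ranges apart in this table. In the abundance table Tdg stood lower, seventh in both groups, after Dnmt3a and Tet2, at 10.2 ± 0.66 CPM per kb with cisplatin and 12.8 ± 0.66 in control, against 33.6 ± 0.09 with cisplatin and 39.97 ± 2.17 in control in the expression table, so its place in the order is not settled. Tet3 closed the order at 1.503 ± 0.08 CPM per kb with cisplatin and 1.67 ± 0.14 in control (SD, n = 3). On the RNAome scale Dnmt3l was first, at 11.0 ± 2.60 CPM per kb with cisplatin and 10.9 ± 1.70 in control, and Tet3 last, but the order between them differed from that of mRNA sequencing. Tdg stood above Dnmt1 there, and Dnmt3a was above Dnmt3b with cisplatin and below it in control, with overlapping ranges of this pair in both groups.

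The genes that fell had start regions of unlike CpG content. CpG is the substrate of these enzymes, and the 2 windows below are shown because Tet2 and Dnmt3b had the lowest estimates of the genes with a RefSeq row. They are the 250 bases before the RefSeq start, from RefSeq on GRCm38.p6, 5′ to 3′ on the gene's strand, with each CpG (the letters CG, alike on both strands) in capitals. The Tet2 window is chr3:133544391-133544640 on the minus strand, and the Dnmt3b window is chr2:153649199-153649448 on the plus strand.
Tet2: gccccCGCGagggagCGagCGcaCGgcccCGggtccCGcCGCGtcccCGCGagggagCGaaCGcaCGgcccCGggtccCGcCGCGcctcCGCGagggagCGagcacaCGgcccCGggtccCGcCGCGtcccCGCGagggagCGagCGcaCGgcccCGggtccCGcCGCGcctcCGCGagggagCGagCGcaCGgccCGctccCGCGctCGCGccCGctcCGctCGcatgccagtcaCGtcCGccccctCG
Dnmt3b: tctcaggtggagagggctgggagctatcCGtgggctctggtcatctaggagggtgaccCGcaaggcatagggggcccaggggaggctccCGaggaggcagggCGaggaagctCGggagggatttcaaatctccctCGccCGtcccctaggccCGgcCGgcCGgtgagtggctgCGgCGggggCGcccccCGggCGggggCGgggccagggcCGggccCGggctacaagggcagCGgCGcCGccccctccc
The Tet2 window held 51 CpG, and 0.067% of 32851 windows of the same length in the table held as many or more. The Dnmt3b window held 21 (16.3% of all windows held as many), and the median window held 6. All 9 genes were matched, through 16 start windows. Of the other genes called lower, the 3 Dnmt3l windows held 3 to 5 CpG, Uhrf1 10 and 30, Dnmt3a 15 to 40 and Tdg 19. Of the genes not called, Dnmt1 windows held 2, 7 and 26 CpG and Tet3 held 17. Tet1, read on introns alone, held 15. Methylation of these windows was not measured, and a link of CpG content to the changes was not tested.

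RNAome sequencing reads the same RNA samples without poly(A) selection. Levels of these genes were lower on its scale, such as 20.6 CPM with cisplatin and 21.3 CPM in control for Dnmt1, and the reason was not tested. None of the 8 genes passed the test there, where 2.04% of 9978 genes were called by edgeR, and at an unadjusted p under 0.05 there were 2 of the 8 and 1378 of all genes. DESeq2 called none of the 8 either, and 1.37% of all genes. The median log2 change was -0.18 over the 8 genes and 0.00 over all genes tested, and 6 of 8 estimates were below 0.

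The 2 genes at an unadjusted p under 0.05 were Tet2 and Tdg. Tet2 had 9.79, 7.56 and 8.91 CPM in the cisplatin RNAome libraries 8.3.3, 8.4.3 and 8.5.3, against 15.9, 10.8 and 13.0 CPM in the control libraries 8.4.16, 8.5.16 and 8.6.16. Tdg had 15.7, 13.5 and 13.5 CPM with cisplatin, against 24.8, 19.4 and 17.3 CPM in control. In both genes all cisplatin libraries were below all control libraries, as in 9.14% of all genes tested, and control library 8.4.16 was the highest. The log2 changes were -0.58 ± 0.18 for Tet2 (edgeR adjusted p 0.123) and -0.51 ± 0.17 for Tdg (edgeR adjusted p 0.152).

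The other 6 genes overlapped between groups in RNAome sequencing. Estimates were -0.32 ± 0.25 for Dnmt3b, -0.22 ± 0.17 for Uhrf1, -0.15 ± 0.16 for Dnmt3a, -0.03 ± 0.17 for Dnmt1 and 0.01 ± 0.19 for Dnmt3l. Tet3 had only 53 counts over the cisplatin and 22 over the control libraries, and its estimate of 0.35 ± 0.55 had a 95% interval of -0.800 to 1.502. The signs for Dnmt1, Dnmt3b, Dnmt3l and Tet3 turned when single libraries were left out.

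The difference of the cisplatin effect between assays was tested as an interaction over 12 libraries. None of 13070 genes differed at an adjusted p under 0.05 in edgeR, with 770 at an unadjusted p under 0.05, none of them among the 8 genes. Dnmt3l had a log2 change 0.31 ± 0.21 higher in RNAome than in mRNA sequencing, and Tdg one 0.23 ± 0.16 lower, both with an adjusted p of 0.868. The larger intervals of RNAome sequencing cover the mRNA estimates of all 8 genes. Except for Tet2 and Tdg they also cover 0, so they are too wide to tell the mRNA estimates from no change.

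**Figure D2:**
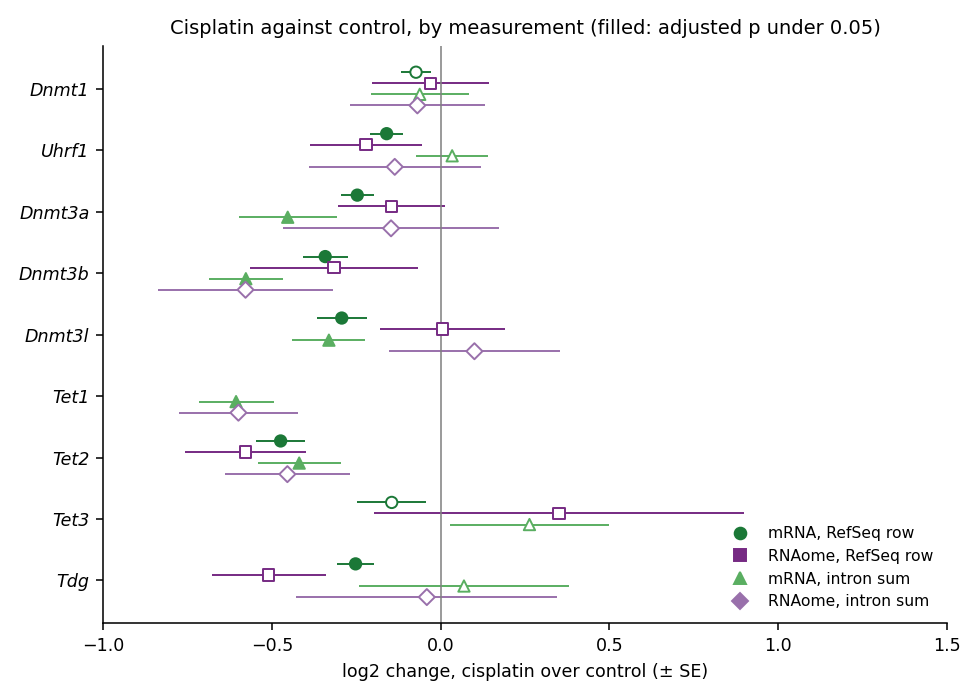
Log2 change, cisplatin over control (x axis, bars ± SE), for each of the 9 genes (y axis) in 4 measurements, with filled symbols at an adjusted p under 0.05. The filled symbols are the 6 RefSeq rows and the 5 intron sums of mRNA sequencing that were lower, from -0.61 for Tet1 introns to -0.16 for the Uhrf1 row.

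Reads in introns give a second view of these genes, which the choice of rows did not use, and the only view of Tet1. Counts of table regions that coincide with an annotated intron of 1 gene were summed per gene. In mRNA sequencing, intron sums of Tet1, Dnmt3b, Dnmt3a, Tet2 and Dnmt3l were lower with cisplatin and none of the 9 was higher. Of 8734 genes tested on introns, 13.7% were called in either direction, 6.22% were called lower, and 13.5% had all cisplatin libraries below all controls. The median was -0.33 over the 9 genes and 0.01 over all genes tested.

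Tet1 (chromosome 10: 62267318 to 62361866 on mm9, minus strand), a TET enzyme that ES cells express, was covered through 6 introns. Its intron sum was 60.4, 61.6 and 50.6 CPM with cisplatin, against 89.9, 92.0 and 82.6 CPM in control, where CPM is scaled to the intron counts of a library. The groups did not overlap, with control library 8.6.16 the lowest of its group and cisplatin library 8.4.3 the highest of its group. The log2 change was -0.61 ± 0.11 (edgeR adjusted p 0.000251), or 34.3% lower. It was called under all 8 alternatives.

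Dnmt3b introns (11 regions) had 65.0, 60.5 and 54.3 CPM with cisplatin, against 83.8, 90.8 and 94.2 CPM in control, a log2 change of -0.58 ± 0.11 (edgeR adjusted p 0.000365). They were also called under all 8 alternatives, with the groups apart in every library. The rest were less stable. Dnmt3a introns changed by -0.45 ± 0.15 (edgeR adjusted p 0.0332), Tet2 introns by -0.42 ± 0.12 (0.0199) and Dnmt3l introns by -0.33 ± 0.11 (0.0366), each with all cisplatin libraries below all controls.

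The intron sums of Dnmt1 (-0.06 ± 0.15), Uhrf1 (0.03 ± 0.11), Tdg (0.07 ± 0.31) and Tet3 (0.26 ± 0.24) did not pass and overlapped between groups. Whether intron and RefSeq row changes of a gene differ was not tested. The count of 5 called intron sums was 2 with the scaling of the RefSeq gene fit. It was 3 without cisplatin library 8.4.3, without control library 8.4.16 or without control library 8.5.16, 2 without cisplatin library 8.5.3 and 4 without either remaining library.

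In RNAome sequencing none of the 8 intron sums tested passed in edgeR, where 1.03% of 6133 genes were called, with 3 of the 8 and 744 of all genes at an unadjusted p under 0.05. Tet1 introns had 3.60, 3.48 and 3.05 CPM with cisplatin, against 5.71, 4.85 and 4.99 CPM in control. All cisplatin libraries were below all controls, as in 8.4% of genes tested on introns there, and the log2 change was -0.60 ± 0.18 (edgeR adjusted p 0.115). Tet2 introns (-0.45 ± 0.18) were below all controls as well, and Dnmt3b introns (-0.58 ± 0.26) overlapped. Tet3, with 18 counts over cisplatin and 12 over control libraries, was not tested.

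**Figure D3:**
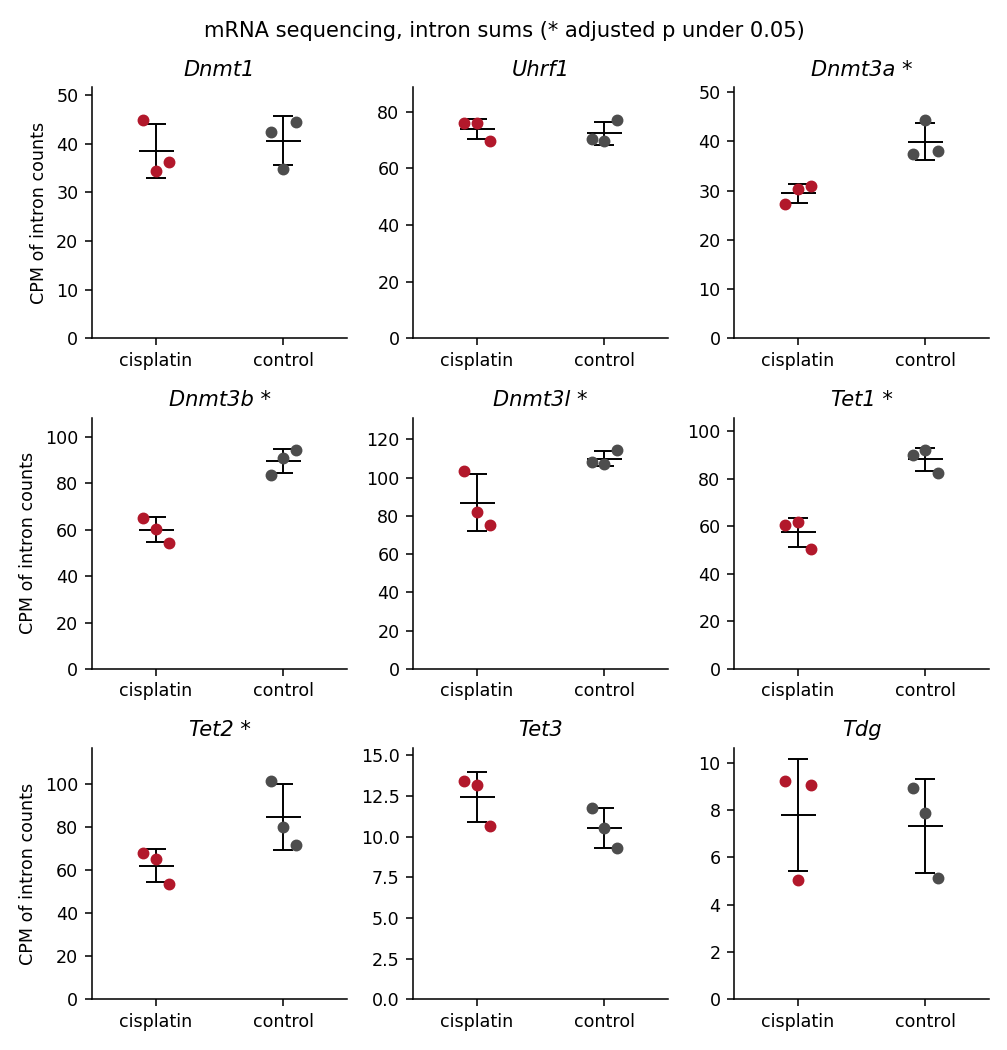
CPM of summed intron counts in mRNA sequencing (y axis, from 0) in the cisplatin and control libraries (x axis) for all 9 genes, with points for libraries and bars for mean ± SD, n = 3. The 5 genes with an asterisk (adjusted p under 0.05) have all cisplatin points below all control points, while Dnmt1, Uhrf1, Tet3 and Tdg overlap.

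Genes that work with these enzymes, or limit DNA methylation, were described by lists. Among 20 chromatin factors that guide or limit DNA methylation, counted together, 12 fell in mRNA sequencing and none rose. Their median log2 change was -0.23 against 0.01 over all genes, where 19.2% were called lower and 18% higher. The lowest p belonged to Hells, a chromatin remodeller needed for de novo methylation, with 378, 355 and 362 CPM with cisplatin, against 515, 499 and 535 CPM in control. All cisplatin libraries were far below all controls, and the log2 change was -0.50 ± 0.05 (edgeR adjusted p 1.74e-06). Usp7, a deubiquitinase that binds DNMT1 and UHRF1, fell by 0.42 ± 0.05 on the log2 scale, the histone methyltransferase Ehmt1 fell by 0.48 ± 0.06, and Smchd1, a chromatin protein of the inactive X chromosome, fell by 0.51 ± 0.07.

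Of 15 genes of one-carbon metabolism and the methyl donor cycle, 7 fell and none rose, with a median of -0.12. That is 46.7% lower, against 19.2% of all genes called lower and 18% called higher. The count of 7 was 4 without cisplatin library 8.4.3 or without cisplatin library 8.5.3, and 1 gene rose without control library 8.6.16. The 7 included Tdh, threonine dehydrogenase, on which mouse ES cells depend (-0.25 ± 0.05), Mtap of methionine salvage (-0.35 ± 0.08), methionine synthase Mtr (-0.28 ± 0.07) and Ahcyl2 (-0.28 ± 0.08). Of 8 genes tested that act with TET enzymes, 4 fell and 1 rose, with a median of -0.19. Their shares were 50% lower and 12.5% higher, against 19.2% and 18% of all genes. Qser1, which protects bivalent promoters from methylation in human ES cells (-0.39 ± 0.07), Dcaf1 (-0.29 ± 0.05) and the CXXC protein Cxxc5 (-0.35 ± 0.08) fell, and Idh1, which makes the TET cosubstrate 2-oxoglutarate, rose (0.34 ± 0.06).

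Of 14 genes of base excision and its helpers, which include glycosylases that act beside TDG, 6 rose and 3 fell, with a median of 0.21. Called shares were 42.9% higher and 21.4% lower, against 18% and 19.2% of all genes. The 3 lower were 1 without cisplatin library 8.4.3 or without control library 8.5.16, and the 6 higher were 4 with DESeq2 and 4 to 6 when single libraries were left out. Gadd45b (0.62 ± 0.11) and Gadd45a (0.35 ± 0.09), DNA damage inducible genes also linked to demethylation, and Xrcc1, a scaffold of single-strand break repair (0.29 ± 0.06), rose, while Apex1, the main abasic site nuclease, fell (-0.29 ± 0.06). The other 2 lower were Lig3, a ligase (-0.18 ± 0.06), and Parp1, a sensor of strand breaks (-0.14 ± 0.045), and the other 3 higher were the glycosylases Mbd4 (0.29 ± 0.08), Neil1 (0.53 ± 0.15) and Neil2 (0.46 ± 0.15), all 5 named here after their values were seen. Of 8 readers of methylated CpG, Zbtb33 (0.43 ± 0.11) and Zbtb4 (0.78 ± 0.22) rose and Uhrf2, a paralog of Uhrf1, fell (-0.34 ± 0.07), with a median of 0.13. These are 25% higher and 12.5% lower, against 18% and 19.2% of all genes, and 1 was higher with DESeq2 or without control library 8.4.16, and 2 lower without cisplatin library 8.3.3.

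**Figure D4:**
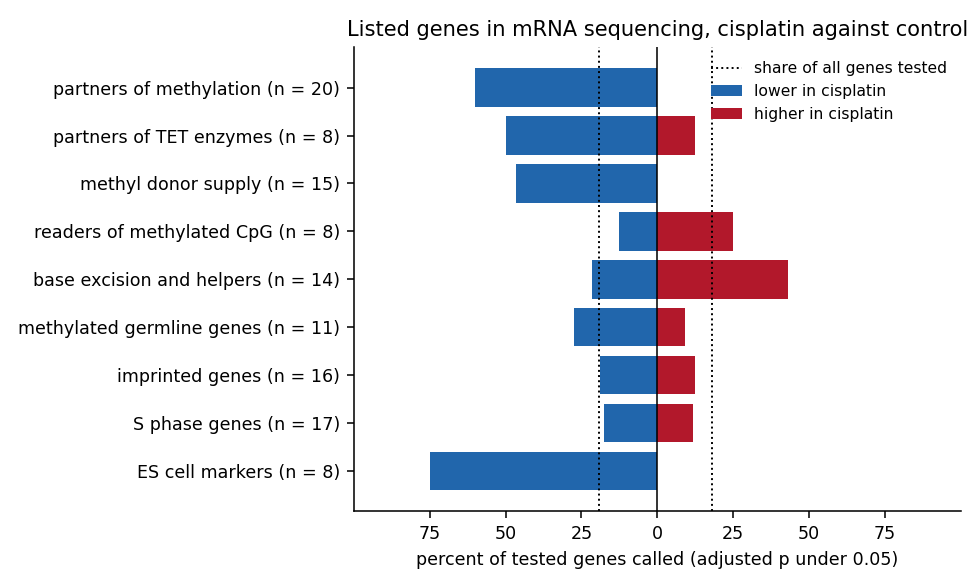
Share of the tested genes of each list (y axis, with the number tested) called lower (blue, left) or higher (red, right) with cisplatin in mRNA sequencing, as percent on the x axis, with dotted lines at the shares over all genes tested (19.2% lower and 18% higher). Partners of methylation (factors that guide or limit it, 60% lower), TET partners (50%), methyl donor supply (46.7%) and ES cell markers (75%) lean lower. Base excision and its helpers (42.9% higher) lean higher.

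Germline genes whose promoters are methylated in somatic cells, and imprinted genes, which are expressed according to parental origin, were counted too. Of 11 germline genes tested, Hormad1, a meiotic chromosome axis protein, rose (0.65 ± 0.13), and Sycp1 of the synaptonemal complex (-0.46 ± 0.14), Stk31 (-0.29 ± 0.10) and Mael (-0.21 ± 0.08) fell, with a median of -0.15. The germline genes were 9.09% higher and 27.3% lower, against 18% and 19.2% of all genes. The count of 3 lower was 0 with DESeq2 and 0 without cisplatin library 8.3.3 or 8.4.3. It was 1 without control library 8.4.16 or 8.5.16, and 2 without either remaining library. Of 16 imprinted genes, the trophoblast factor Ascl2 (1.01 ± 0.17) and the zinc finger gene Zim1 (1.26 ± 0.34) rose, Snrpn (-0.30 ± 0.05) and Peg10 (-0.31 ± 0.07) were among 3 that fell, with a median of -0.04, and Zim1 was at only 1.60 CPM with cisplatin and 0.66 CPM in control. The imprinted genes were 12.5% higher and 18.8% lower, against 18% and 19.2% of all genes, and 1 was higher with DESeq2.

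Most ES cell markers were lower as well. Of 8 ES cell markers 6 fell and none rose in mRNA sequencing, with a median of -0.35. This is 75% lower, against 19.2% of all genes called lower and 18% called higher. The part of these markers in the changes of the methylation genes was not tested. Zfp42 (-0.70 ± 0.07), Esrrb (-0.61 ± 0.05), Klf4 (-0.49 ± 0.06) and Sox2 (-0.31 ± 0.04) fell. Pou5f1, the core pluripotency factor, was at 1197 ± 35.4 CPM with cisplatin and 1198 ± 13.6 CPM in control (SD, n = 3 each).

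Several of these enzymes rise with S phase, and 17 S phase genes were counted for that reason. Of these, Rrm2 (0.31 ± 0.06) was among 2 that rose, and Mcm6 (-0.25 ± 0.04), Mcm3 (-0.17 ± 0.04) and Mcm2 (-0.12 ± 0.04) fell, with a median of -0.02. These are 11.8% higher and 17.6% lower, against 18% and 19.2% of all genes, and the 2 higher were 1 with DESeq2 and without any single one of the 6 libraries. Their summed level was 4312 to 4379 CPM in cisplatin and 4399 to 4596 CPM in control libraries, and its part in the changes of Dnmt1 and Uhrf1 was not tested. In RNAome sequencing no gene of these lists was called by edgeR, apart from the 3 p53 targets. Without those targets, 17 of 104 listed genes tested were at an unadjusted edgeR p under 0.05, against 1378 of all 9978 genes.

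The 3 genes whose log2 CPM followed Tet2 most closely over the 6 mRNA libraries were Pakap (Pearson r 0.9993), Nup155 (0.9968) and Brd8 (0.9966). These values are a description over 6 libraries that share the treatment contrast, chosen as the highest among all tested genes. All 3 were lower with cisplatin, with log2 changes of -0.48 for Pakap, -0.17 for Nup155 and -0.21 for Brd8.

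MicroRNAs that act on the de novo methyltransferases were read from the small RNA tables. The miR-29 family targets Dnmt3a and Dnmt3b mRNA directly. The miR-290 cluster, abundant in mouse ES cells, supports de novo methyltransferase expression through repression of Rbl2. Mature sequences from RefSeq on GRCm38.p6 are shown 5′ to 3′ with the seed, bases 2 to 8, in capitals, to show which microRNAs share one. The miR-29 genes lie on chromosomes 6 and 1, and the miR-290 cluster lies on chromosome 7.
mmu-miR-29a-3p: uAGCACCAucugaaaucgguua
mmu-miR-29b-3p: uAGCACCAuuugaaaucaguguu
mmu-miR-29c-3p: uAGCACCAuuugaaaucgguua
mmu-miR-291a-3p: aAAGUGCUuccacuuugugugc
mmu-miR-293-3p: aGUGCCGCagaguuuguagugu
mmu-miR-294-3p: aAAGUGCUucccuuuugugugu
mmu-miR-295-3p: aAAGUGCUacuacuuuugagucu
Among the sequences shown, the 3 miR-29 members share 1 seed, and miR-291a, miR-294 and miR-295 share another. No mature RefSeq sequence was found under the names mmu-miR-290-3p and mmu-miR-292-3p, which were tested too but are not shown.

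None of the 9 listed microRNAs passed the test in small RNA sequencing, where edgeR called 6.08% of 543 microRNAs and 99 were at an unadjusted p under 0.05. DESeq2 called none of the 9 either. mmu-miR-294-3p had 16334, 15759 and 16142 CPM with cisplatin, against 17583, 17704 and 18272 CPM in control. All cisplatin libraries were below all controls, as in 8.1% of the microRNAs tested, and the log2 change was -0.15 ± 0.07 (edgeR adjusted p 0.287). mmu-miR-293-3p was likewise below in every library (-0.09 ± 0.07), and the other 7 overlapped between groups.

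mmu-miR-295-3p was the most abundant of the 9, with 145842 ± 4831 CPM with cisplatin and 158552 ± 7253 CPM in control (SD, n = 3 each), a log2 change of -0.12 ± 0.08. mmu-miR-29a-3p was far less abundant, with 119, 237 and 194 CPM with cisplatin and 222, 164.5 and 147 CPM in control. Its groups overlapped, the log2 change was 0.04 ± 0.25, and the 95% interval was -0.54 to 0.62. mmu-miR-29b-3p and mmu-miR-29c-3p were at 5.31 and 4.31 CPM on average with cisplatin and at 4.74 and 2.98 CPM in control. In RNAome sequencing 7 of the 9 had a value and none passed. There 3.12% of 320 microRNAs were called by edgeR and 51 were at an unadjusted p under 0.05. Of the 7, only mmu-miR-293-3p was under it (-0.79 ± 0.35, edgeR p 0.041, adjusted p 0.274), and its groups overlapped. mmu-miR-29a-3p (-0.82 ± 0.52) had 27 counts over the cisplatin and 50 over the control libraries. Estimates of mmu-miR-292-3p (0.10 ± 0.26) and mmu-miR-295-3p (0.22 ± 0.26) were above 0.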

How the data were processed

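Counts are those the authors deposited, whole numbers with no normalization, for RefSeq transcripts, genomic regions and small RNA sequences. The submitters' processing notes name Bowtie, TopHat, edgeR and build mm9, with no versions or roles. The sources used here do not give the counting rule, strand setting or filters. Main tests took the expression tables, with the abundance tables, whose counts never exceed them, as an alternative. A symbol was found for 18274 of 18943 RefSeq rows of mRNA sequencing and for 17133 of 17787 of RNAome sequencing.

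The main test was edgeR 4.0.16, run in R 4.3.3 (quasi-likelihood test, TMM, filterByExpr with a minimum count of 10, two-sided, Benjamini-Hochberg over all genes tested, threshold 0.05), each comparison on the 6 libraries of its assay. DESeq2 1.42.0 and the settings given at the end were alternatives. CPM use TMM-scaled totals of the tested features. Introns are GENCODE vM1 on NCBIM37, the assembly of mm9. On simulated data for the mRNA comparison (13943 genes) the test recovered 92% of 100 genes changed by 1 on the log2 scale. It recovered 67% of 100 changed by 0.5, and for RNAome (9101 genes) 63% and 6%. Only these genes changed in the simulation, whereas 37.2% of genes were called in the mRNA data. The Benjamini-Hochberg cutoff depends on that share, so the mRNA recovery does not give the power of the reported test. The same RNA code names a sample in both long RNA assays. Deviations from group means of libraries with the same code correlated by 0.073 to 0.274.

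The members, the lists and the alternatives were chosen with earlier results of these data known. Named genes were all members, up to 4 called genes per list with the smallest adjusted p in mRNA sequencing, all listed microRNAs detected, the 3 genes most correlated with the lowest-p member, and Hprt, Cdkn1a, Mdm2 and Ccng1. Rows of the small RNA tables marked as fragments were left out.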

Additional observations from a re-analysis of the deposited data

Results flagged for a closer look

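Fragments of Dnmt3a in the small RNA table of RNAome sequencing entered no comparison. They were picked by a search for genes with every cisplatin library above every control library. They had 6, 4 and 3 counts with cisplatin and 2, 2 and 2 counts in control, or, scaled to a table total of 1000000, 1.42 counts on average with cisplatin and 0.895 in control. The lowest scaled value with cisplatin was 1.31 (library 8.5.3), and the highest in control was 1.26 (library 8.6.16). The difference was not tested, the counts are few, and the separation follows from the search. How many of all fragment rows separate in this way was not counted.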

How the results depend on the processing

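The count of 6 called genes in mRNA sequencing was 6 with DESeq2, RLE factors, no filter, the abundance table, summed rows and rows chosen within the table, 4 with total-count scaling, and 5 to 6 when single libraries were left out. In RNAome sequencing and in the assay difference the count stayed 0. Total-count scaling moved the median of all genes to 0.11 in mRNA and to -0.12 in RNAome sequencing, and the sign of Dnmt1 turned in mRNA sequencing (0.023). For Dnmt3l in RNAome sequencing it turned with DESeq2 (-0.007), with RLE factors (-0.000) and with total counts (-0.083). miR-290-3p turned in RNAome sequencing with DESeq2 (0.035). The 5 called intron sums became 2 with the scaling of the RefSeq gene fit and 2 to 4 when single libraries were left out. The causes were not tested. Leaving out single libraries gave these ranges of log2 change, where signs turned. In RNAome sequencing: Dnmt1 -0.20 to 0.10, Dnmt3b -0.61 to 0.059, Dnmt3l -0.19 to 0.14, Tet3 -0.33 to 0.71. In the assay difference: Dnmt1 -0.11 to 0.18, Uhrf1 -0.14 to 0.068, Dnmt3b -0.28 to 0.44, Tet2 -0.21 to 0.025, Tet3 -0.21 to 0.86. In RNAome introns: Dnmt1 -0.29 to 0.12, Dnmt3l -0.022 to 0.32, Tdg -0.16 to 0.02. In mRNA introns: Dnmt1 -0.19 to 0.02, Uhrf1 -0.005 to 0.078, Tdg -0.13 to 0.33. In small RNA sequencing: miR-29a-3p -0.20 to 0.27, miR-29b-3p -0.37 to 0.50. In RNAome microRNAs: miR-290-3p -0.27 to 0.39, miR-292-3p -0.024 to 0.23, miR-294-3p -0.33 to 0.072. With the RNA code as replicate block, the assay difference called 0 of the 8 genes, as without it, and the block changed no call; its Dnmt3l value was 0.30. One of the 6 codes correlated below 0.1 between assays. Every RefSeq row as its own feature, and list counts without single libraries, were added after seeing the data. RNAome counts limit what could be seen for these genes, down to 22 counts for Tet3 over 3 control libraries.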

Other observations

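In the same table, fragments of Uhrf1 had 289, 51 and 11 counts with cisplatin and 21, 71 and 27 counts in control, so a single cisplatin library, 8.3.3, held most of them. Fragments of Tet3 had 1, 0 and 0 counts with cisplatin and 10, 3 and 2 counts in control. Both genes were chosen here after their values were seen. How many of all fragment rows separate the groups as Tet3 does was not counted.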
